A study of Rattus norvegicus with 21 samples.

Results

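The genes examined were 42 genes of blood clotting, fibrinolysis and complement whose products are mostly made by the liver. They were chosen by name, and each was followed through the array probe that carries its symbol. Of the 42, 34 had a named probe, 1 probe each: 14 of 17 clotting genes, all 4 fibrinolysis genes and 16 of 21 complement genes. F9, Fga, Proz, C3, C4a, C5, C8b and Masp1 were not analysed here. On all 21 arrays each of the 34 probes was brighter than the 40th percentile that served as the filter, and they were among 19339 features tested.

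RNA came from non-tumour liver of male Wistar rats, with 21 Illumina bead arrays that fall into 7 groups of 3. Rats were injected every week with diethylnitrosamine (DEN), a liver carcinogen, or with phosphate-buffered saline (PBS). The groups labelled week 12 had received PBS, the lower DEN dose of 50 mg/kg (DEN 50) or the higher dose of 100 mg/kg (DEN 100). Those labelled week 18 were PBS without further injections, and DEN 50 rats that also received vehicle, erlotinib at 0.5 mg/kg or erlotinib at 2 mg/kg during weeks 13 to 18. Erlotinib blocks the kinase of the epidermal growth factor receptor. The labels class every DEN liver as cirrhosis and every PBS liver as control, and DEN had been stopped for 1 week when the livers were taken. The 0.5 mg/kg dose belonged to a separate study, and vehicle rats from the 2 studies were merged without a label for each rat's study. Erlotinib dose and study therefore cannot be told apart. Study may also differ between an erlotinib group and the vehicle arrays it is compared with. The labels give the rats no age, and nothing says outright that each array is a separate animal, so the p-values cover only variation among these arrays, which may be technical. Arrays are called by the end of their label, such as DEN_24.

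Clotting runs through a chain of serine proteases that ends with thrombin turning fibrinogen into fibrin, and inhibitors such as antithrombin and the protein C system restrain it. Plasmin, made from plasminogen, dissolves fibrin. Complement is a second protease cascade, started by the classical, lectin or alternative route, that ends in a pore of terminal components. Hepatocytes secrete most of these plasma proteins, and a failing liver is known for low clotting factor levels, whereas fibrinogen and several complement components are acute phase proteins that inflammation raises.

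Levels below are normalized log2 intensities, and changes are log2 differences ± SE from a limma fit of all 21 arrays. A gene was called where the p adjusted by Benjamini-Hochberg over all 19339 features was under 0.05. Raw array medians ran from 105 to 186.9, and no pair of arrays shared more than 0.00444% of raw values. The mean correlation of an array with its group mates was 0.976 to 0.989 and lowest for vehicle array DEN_24 and DEN 100 array DEN_113. Array DEN_113 was the lowest of the 3 DEN 100 arrays for 28 of the 34 genes. Counts without either array stand beside the comparisons they change. Of 9 measured hepatocyte markers, 8 had means above the median of all values in every group, and Apob did not. The summed intensity of the 9 was 237329 to 243065 on PBS arrays of week 12, 191689 to 215756 in DEN 50, 128877 to 196209 in DEN 100, and 178557 to 212525 with vehicle. Of these 9, 4 fell in DEN 100, with the largest falls for transthyretin, Ttr, by 1.87 and the urea cycle enzyme Cps1 by 1.52. Other markers differed less. Tat averaged 13.90 in PBS of week 12 and 12.74 in DEN 100, Hpd 14.48 and 13.71, and Serpina1 15.26 and 14.66. Alb averaged 15.05 in PBS of week 12 and 14.74 in DEN 100, Apoh 15.42 and 15.04, and Ahsg 15.17 and 15.29. In PBS, Serpina1, Alb, Apoh and Ahsg lay close to the brightest normalized value, 15.48. In whole liver, fewer hepatocytes and less RNA per hepatocyte cannot be told apart. Summed markers of bile duct cells were 683 to 1110 on PBS arrays of week 12 and 7012 to 13684 in DEN 100, with 6 of 6 markers called higher. Summed myofibroblast markers were 1674 to 2985 on those PBS arrays and 6885 to 7832 in DEN 100, with 5 of 7 called higher, and the part of both lists in the changes below was not tested.

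The brightest normalized value on any array was 15.48, and 3 genes had means within 1 log2 unit of it. These were the fibrinogen chains Fgg at 15.32 and Fgb at 14.95 and prothrombin, F2, at 14.66. Fgg was among the 10 brightest probes on 14 of 21 arrays and sat at 15.48 on all 3 PBS arrays of week 12. Quantile normalization gives the brightest probe of every array this same value, so Fgg was the brightest probe on those 3 arrays. Its raw intensities there were 45651, 41292 and 50236. Over all 21 arrays they ran from 17032 to 53010, where the highest raw intensity of any probe was 54522. Within 2 units of the top were 4 more, Serpinc1, Hrg, Cfi and Cfb. At the other end F7 had a mean of 7.04, and no group mean of the 34 genes fell to the median of all values, 6.38. Normalization to a shared top value leaves the brightest probes little room to rise on this scale, and saturation was not tested.

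**Figure D1:**
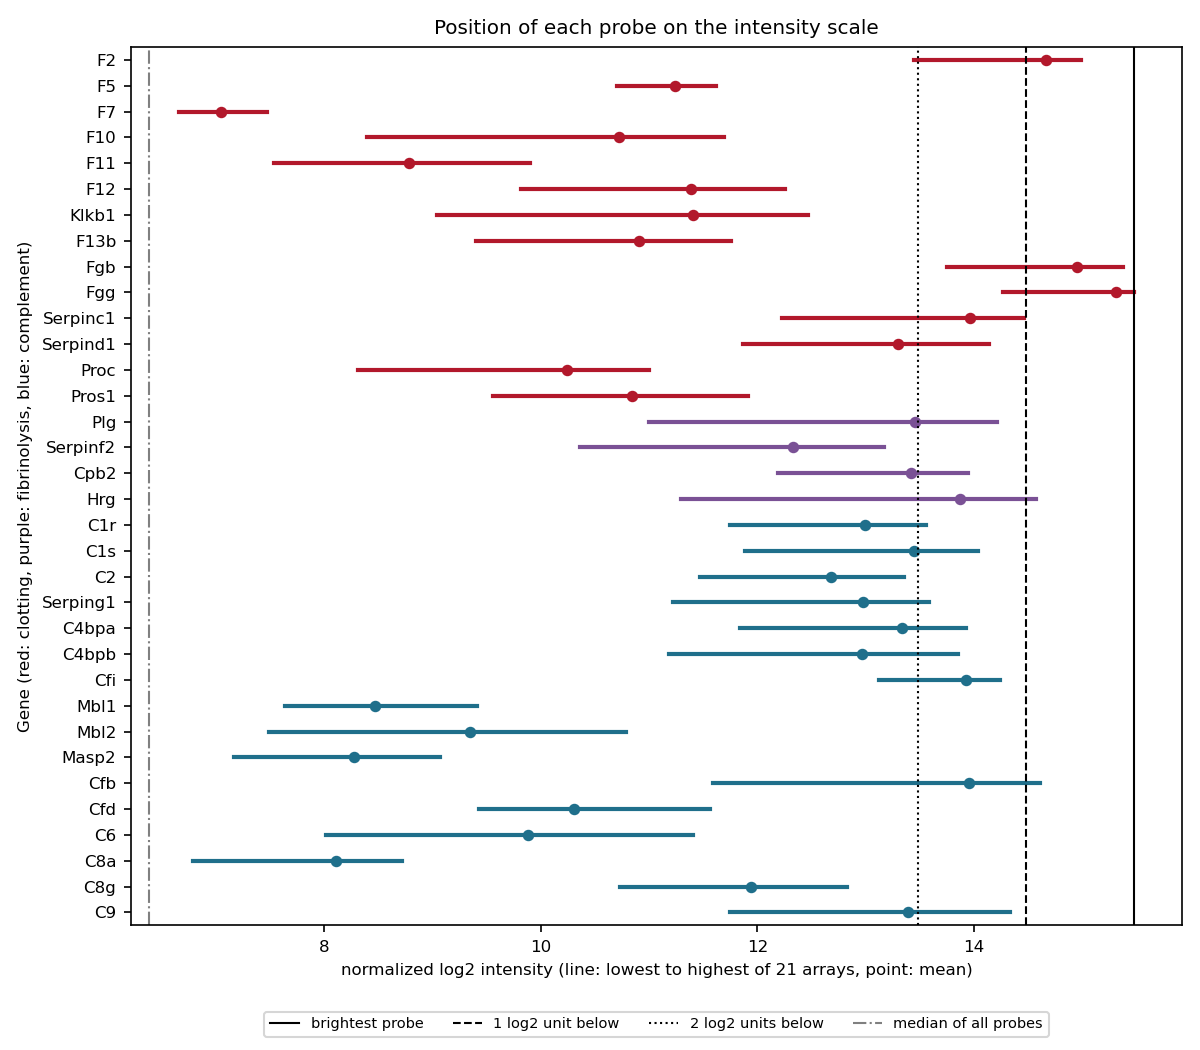
Position of each of the 34 probes on the normalized log2 intensity scale, with a line from the lowest to the highest of 21 arrays and a point at the mean. Fgg, Fgb and F2 lie within 1 log2 unit of the brightest value of 15.48, and F7, at 7.04, lies nearest the median of all probes.

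DEN at 100 mg/kg was the condition in which most of these genes were lower. Against PBS at week 12, 31 of 34 fell and 1 rose, while 9.81% of all features fell and 11.5% rose. Among features with a mean above 10 on the log2 scale, 26.2% fell. The median change of the 34 was -1.47 against -0.01 for all features. By arm, 12 of 14 clotting genes fell with a median of -1.58, 4 of 4 fibrinolysis genes fell with a median of -1.97, and 15 of 16 complement genes fell and 1 rose with a median of -1.39. Differences between the arms were not tested. The DEN 100 mean was the lowest of the 7 group means for 33 of the 34 genes, all except factor D, Cfd. Lowest means were not counted over all features. Without array DEN_113, 29 of 34 genes were called against PBS, 28 lower and 1 higher.

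**Figure D2:**
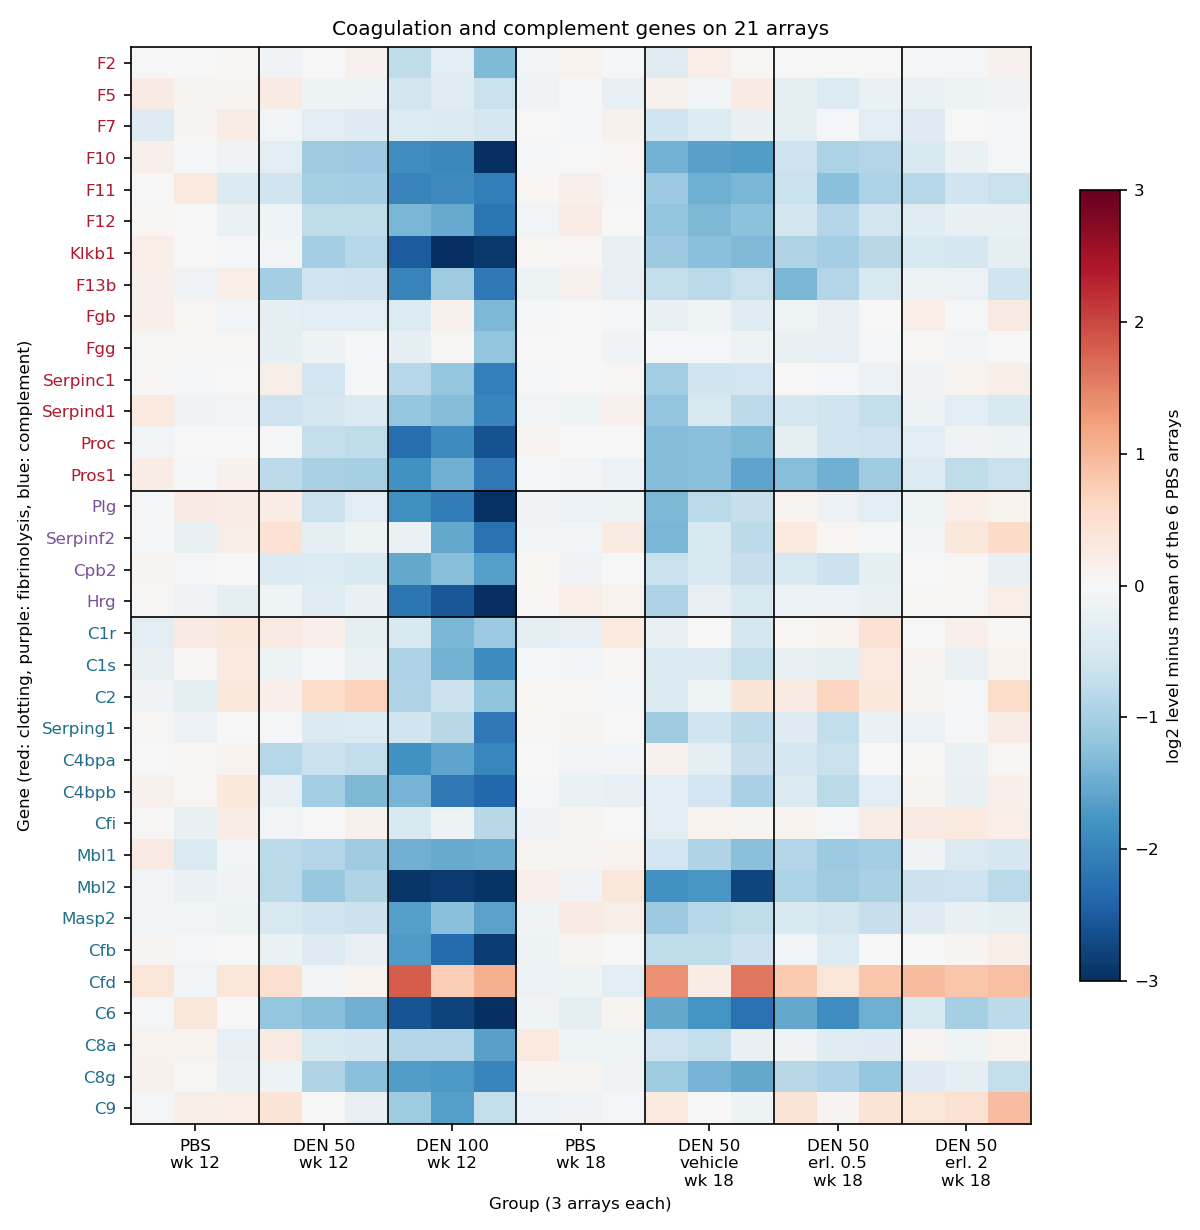
Level of each gene on each of the 21 arrays as log2 difference from the mean of the 6 PBS arrays, with colours that stop at 3 in either direction. The DEN 100 columns are the darkest blue for most rows, the vehicle columns are paler, and the erlotinib 2 columns lie nearer to PBS. Cfd lies above the PBS mean in the DEN 100, vehicle and both erlotinib columns, and is palest among these on vehicle array DEN_59.

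Among clotting proteases the fall differed between genes. Klkb1, which encodes plasma prekallikrein of the contact pathway, was 12.47, 12.29 and 12.22 on the PBS arrays of week 12, 12.19, 11.25 and 11.43 in DEN 50 and 9.79, 9.04 and 9.38 in DEN 100. All DEN 100 values lay below all others, a change of -2.93 ± 0.19 (adjusted p = 2.4e-10, limma), or 7.60-fold lower. F10, the factor X at which the extrinsic and intrinsic routes meet, was 11.69, 11.50 and 11.44 in PBS and 9.68, 9.60 and 8.39 in DEN 100. The groups stood apart, at -2.31 ± 0.24 (adjusted p = 2.2e-07, limma). The contact factors F11 and F12 fell by 1.94 and 1.64, and F13b, the carrier subunit of the fibrin crosslinking factor XIII, fell by 1.83. Prothrombin, near the top of the scale, was 14.76, 14.79 and 14.85 in PBS and 14.01, 14.45 and 13.45 in DEN 100. It fell by 0.83, with all DEN 100 values below PBS. The cofactor gene F5 fell by 0.66. F7, the factor that tissue factor activates, changed by -0.42 ± 0.15 (adjusted p = 0.049, limma). That call for F7 was lost without any array of either group except array PBS_7, and under median scaling, bright-probe scaling or no filter on dim probes. F7 and F10 lie next to each other on rat chromosome 16, as do F11 and Klkb1.

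The fibrinogen genes were the 2 that did not pass in DEN 100. Fgb was 15.26, 15.16 and 15.03 in PBS and 14.70, 15.24 and 13.75 in DEN 100, and Fgg was 15.48 on each PBS array and 15.15, 15.48 and 14.27 in DEN 100. Array DEN_112 stayed at the PBS level for both genes while array DEN_113 was low. The changes were -0.58 ± 0.22 for Fgb (adjusted p = 0.063, limma) and -0.52 ± 0.19 for Fgg (adjusted p = 0.052, limma). Both passed with the deposited normalized table (-0.63 and -0.54), with median scaling (-0.89 and -0.76), with bright-probe scaling (-1.11 and -0.98), with the stricter filter and without array DEN_112, and Fgg also without array DEN_111.

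All 4 measured anticoagulant genes fell in DEN 100. Protein C, Proc, whose active form cuts cofactors of clotting, was 10.84, 10.89 and 10.92 in PBS, 10.86, 10.21 and 10.16 in DEN 50 and 8.66, 9.03 and 8.31 in DEN 100. It changed by -2.22 ± 0.17 (adjusted p = 1.9e-09, limma), with no overlap of DEN 100 and PBS. Its cofactor protein S, Pros1, fell by 1.90, the heparin cofactor Serpind1 by 1.51 and antithrombin, Serpinc1, by 1.37. Of the proteins that need vitamin K to bind membranes, 5 were measured (F2, F7, F10, Proc and Pros1), and 5 of 5 fell in DEN 100, with the limits given for F7.

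Fibrinolysis genes fell as a group of 4 in DEN 100. Plasminogen, Plg, was 13.92, 14.21 and 14.20 in PBS, 14.19, 13.30 and 13.65 in DEN 50 and 12.13, 11.87 and 11 in DEN 100. No DEN 100 value reached those of PBS, and the change was -2.45 ± 0.24 (adjusted p = 6.2e-08, limma). Hrg, a glycoprotein that binds plasminogen, was 14.40, 14.27 and 14.09 in PBS and 12.20, 11.82 and 11.29 in DEN 100, a fall of 2.49. Both inhibitors of fibrin breakdown fell too, Cpb2 by 1.5 and antiplasmin, Serpinf2, by 1.29. Serpinf2 overlapped between the groups, since array DEN_111 at 12.39 lay within the PBS range of 12.36 to 12.77, and its call was lost without array DEN_113.

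Of the complement genes, C6 of the terminal pore and Mbl2 of the lectin route had the largest falls in DEN 100. C6, a component of the membrane pore, was 11.05, 11.41 and 11.06 in PBS, 9.92, 9.80 and 9.64 in DEN 50 and 8.48, 8.29 and 8.02 in DEN 100. The 3 groups did not overlap, and C6 changed by -2.91 ± 0.18 in DEN 100 (adjusted p = 8.5e-11, limma), or 7.52-fold lower. The other terminal genes C8g, C9 and C8a fell by 1.78, 1.26 and 1.11. Mbl2, a mannose-binding lectin that starts the lectin route, was 10.35, 10.25 and 10.34 in PBS, 9.64, 9.29 and 9.55 in DEN 50 and 7.51, 7.58 and 7.49 in DEN 100. It changed by -2.79 ± 0.18 in DEN 100 (adjusted p = 3e-10, limma), 6.90-fold lower, again without overlap. Its relative Mbl1 and the protease Masp2, which cuts the next components, fell by 1.39 and 1.40.

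Factor B, Cfb, the protease of the alternative route, was 14.52, 14.40 and 14.45 in PBS and 12.74, 12.14 and 11.60 in DEN 100. It fell by 2.30 without overlap, although its PBS level is near the top of the scale. Among the classical proteases C1s fell by 1.44, C1r by 1.06 and C2 by 0.90. The regulators C4bpb and C4bpa, chains of the C4b-binding protein, fell by 2.12 and 1.84, and the C1 inhibitor Serping1 by 1.15. Factor I, Cfi, which cuts C3b and C4b, changed least of the regulators, by -0.49 ± 0.15 (adjusted p = 0.024, limma), and its call was lost without array PBS_7 or PBS_110 or DEN 100 array DEN_111 or DEN_113, and with median scaling or the deposited table.

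Cfd, the factor D that activates factor B and that fat cells are known to make, was the only one of the 34 genes to rise. It was 10.10, 9.65 and 10.11 in PBS and 10.21, 9.66 and 9.84 in DEN 50 at week 12, against 11.56, 10.48 and 10.80 in DEN 100. At week 18 it was 9.55, 9.59 and 9.43 in PBS and 11.10, 9.97 and 11.31 with vehicle. All DEN 100 values lay above PBS and DEN 50, and all vehicle values above PBS of week 18, with array DEN_59 the lowest of the vehicle arrays. Cfd rose by 1.0 ± 0.27 in DEN 100 (adjusted p = 0.0094, limma) and by 1.27 ± 0.27 with vehicle (adjusted p = 0.0016, limma). The call in DEN 100 was lost without array PBS_108 (0.84) or DEN 100 array DEN_111 (0.69) and with bright-probe scaling (0.85), whereas that with vehicle held without each array. Of 5 measured fat cell markers, Fabp4, which other cells also make, rose by 4.06 and 4.54 in these comparisons, Cidec fell by 0.96 and 1.10, and Adipoq, Lep and Adrb3 did not pass. The summed intensity of the 5 was 942 to 1046 on PBS arrays of week 12 and 2366 to 3598 in DEN 100, 1142 to 1256 on PBS arrays of week 18 and 2611 to 5733 with vehicle. Adipoq, which defines fat cells, and Lep were no brighter than the median of all values in these groups, except Adipoq in PBS of week 18 at 6.6. Their part in the rise of Cfd was not tested.

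**Figure D3:**
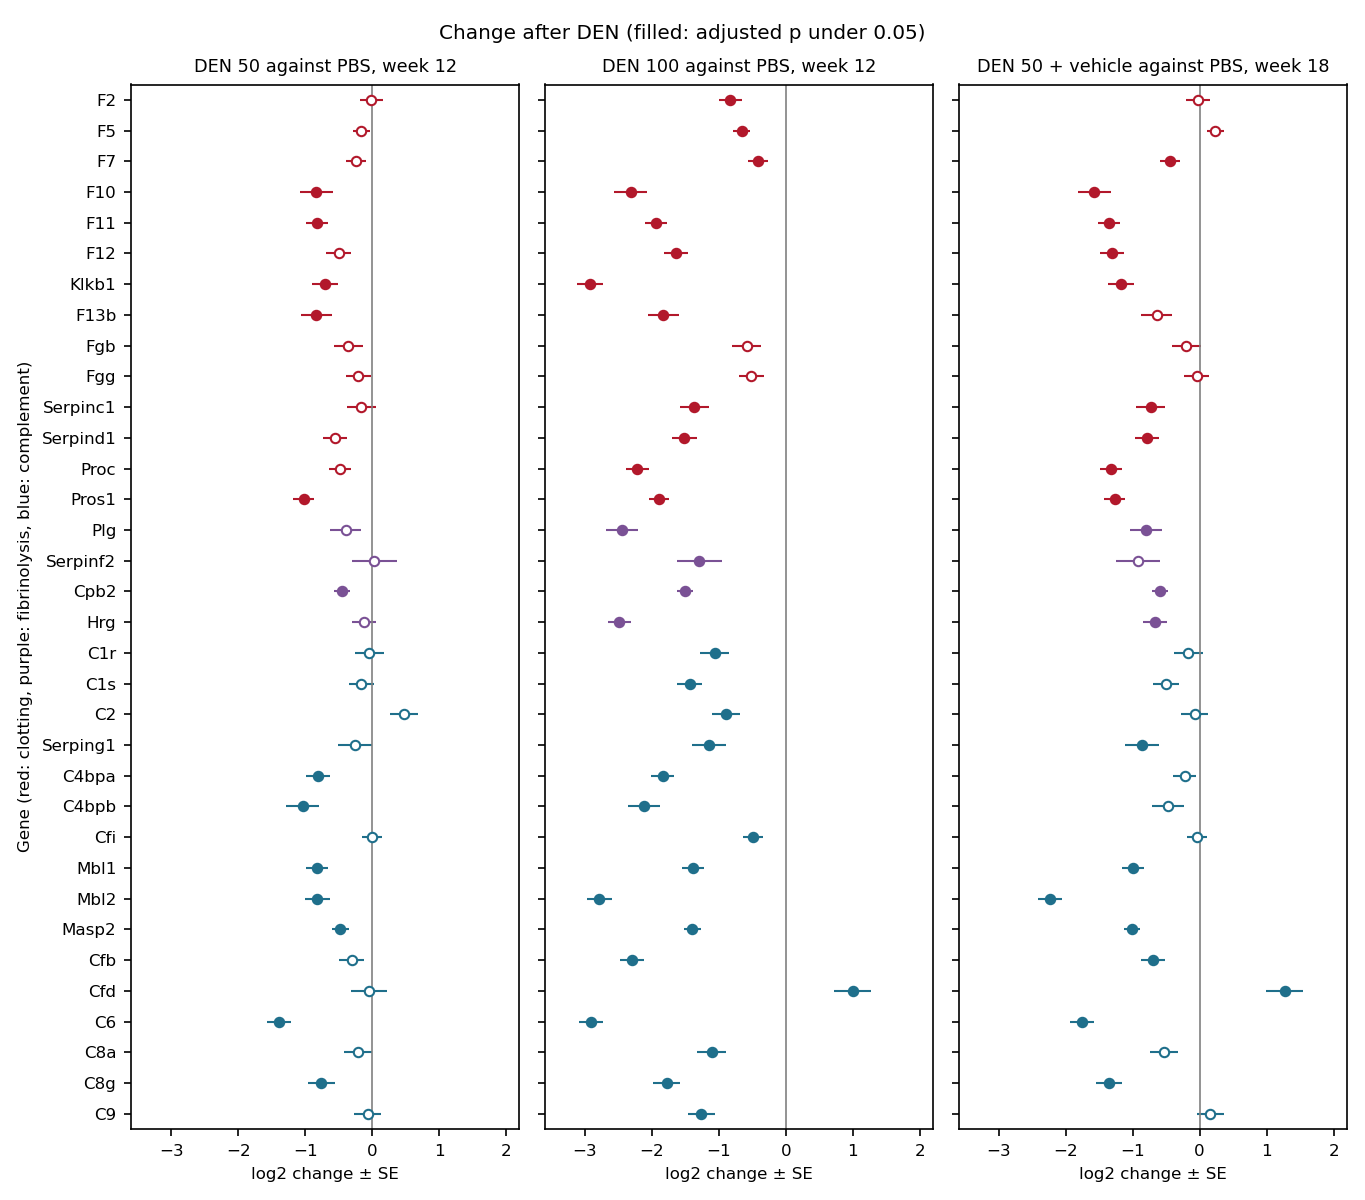
Log2 change ± SE of each gene against PBS in DEN 50 and DEN 100 livers of week 12 and in DEN 50 livers with vehicle of week 18, with filled points for adjusted p under 0.05. DEN 100 has 32 filled points, of which Cfd alone, at 1.0, lies right of 0, and the points of Fgb and Fgg are unfilled.

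The promoters of Klkb1, Plg and C6, which fell most in DEN 100 in their arms among genes with a RefSeq promoter entry, and of Cfd, which rose, are shown as the DNA from which these transcripts start. Each is the 250 bases before the start in RefSeq annotation of assembly GRCr8, and capitals mark a match to the C/EBP motif TTGCNNAA on either strand.
Klkb1 (GRCr8 chr16:53690976-53691225, plus strand): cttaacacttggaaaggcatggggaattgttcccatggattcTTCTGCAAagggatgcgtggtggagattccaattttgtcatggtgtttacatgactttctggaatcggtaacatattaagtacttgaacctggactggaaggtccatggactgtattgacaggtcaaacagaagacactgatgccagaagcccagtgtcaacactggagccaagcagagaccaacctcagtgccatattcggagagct
Plg (GRCr8 chr1:50915407-50915656, minus strand): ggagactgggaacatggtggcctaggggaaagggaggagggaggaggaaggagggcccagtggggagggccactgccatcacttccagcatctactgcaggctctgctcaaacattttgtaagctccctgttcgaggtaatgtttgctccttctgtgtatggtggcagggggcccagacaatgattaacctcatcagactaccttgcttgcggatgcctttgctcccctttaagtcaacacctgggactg
C6 (GRCr8 chr2:55573383-55573632, plus strand): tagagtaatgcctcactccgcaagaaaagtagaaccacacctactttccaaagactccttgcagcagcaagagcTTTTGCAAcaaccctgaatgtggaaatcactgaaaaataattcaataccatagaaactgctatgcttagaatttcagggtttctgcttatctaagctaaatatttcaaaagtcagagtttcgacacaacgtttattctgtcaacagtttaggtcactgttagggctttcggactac
Cfd (GRCr8 chr7:10465497-10465746, minus strand): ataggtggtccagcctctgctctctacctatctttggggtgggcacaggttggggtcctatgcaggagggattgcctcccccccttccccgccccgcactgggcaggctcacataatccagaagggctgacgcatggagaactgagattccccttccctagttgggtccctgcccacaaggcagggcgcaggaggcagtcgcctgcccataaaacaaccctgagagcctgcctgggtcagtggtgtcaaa
The first base of the match lies 208 bases before the start in Klkb1 and 176 in C6, and Plg and Cfd have none. RefSeq gave such a promoter for 24 of the 34 genes. The C/EBP motif was in 7 of 24 (29.2%; C1r, C4bpa, C6, C8a, Fgb, Klkb1 and Serpinc1) and in 9.22% of all 33469 rat promoters. The STAT3 motif TTCNNNGAA was in 4 of 24 (16.7%; C4bpb, C8a, Fgb and Pros1) and in 7.67% of all. The HNF4 motif AAAGTCC was in 0 of 24 and 3.99%, and the HNF1 consensus, an inverted repeat, in 0 of 24 and 0.0956%. These matches describe letters in these windows. Of 11 measured genes of hepatocyte transcription factors, 7 fell and 0 rose in DEN 100, against 9.81% and 11.5% of all features. Among the 7, the bile acid receptor Nr1h4 fell by 1.98, Onecut1 by 1.58, Cebpa by 1.08 and Foxa2 by 0.87. Cebpb, also a C/EBP factor, and Stat3 did not pass there, with changes of -0.38 ± 0.29 and 0.15 ± 0.23. The PBS groups differed in level for 2 of the named genes. Onecut1 averaged 10.94 in PBS of week 12, 9.36 in DEN 100 and 8.47 in PBS of week 18, and Foxa2 10.16, 9.29 and 9.44. Cebpa averaged 6.44 in DEN 100, near the median of all values, 6.38.

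DEN at 50 mg/kg for the same time gave fewer and smaller changes. At week 12, 13 of 34 fell and 0 rose, against 5.13% of all features that fell and 5.77% that rose, and the median change was -0.38 against -0.02 for all features. Of features with a mean above 10, 11.9% fell. In all, 5 of 14 clotting genes (F10, F11, Klkb1, F13b and Pros1), 1 of 4 fibrinolysis genes (Cpb2) and 7 of 16 complement genes (C4bpa, C4bpb, Mbl1, Mbl2, Masp2, C6 and C8g) fell. C6 had the largest change, -1.39 ± 0.18 (adjusted p = 1.5e-05, limma), followed by C4bpb at -1.04 ± 0.24 and Pros1 at -1.02 ± 0.15. Pros1 was 11.91, 11.65 and 11.83 in PBS and 10.92, 10.72 and 10.69 in DEN 50, with no overlap. The 3 lectin route genes each fell, by 0.83 for Mbl1, 0.82 for Mbl2 and 0.47 for Masp2. Prothrombin had a change of -0.01 ± 0.18, Cfi of 0.00 ± 0.15 and C2 of 0.48 ± 0.21 (adjusted p = 0.17, limma).

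The DEN 50 calls rested on few arrays and on the scaling. Array DEN_11 was the highest of the 3 DEN 50 arrays for 25 of 34 genes: Klkb1 was 12.19 on it and 11.25 and 11.43 on the others. The count was 7 without array PBS_7 or without DEN 50 array DEN_51, and 6 of the 13 calls held without every array in turn (F11, Pros1, C4bpa, Mbl1, Mbl2 and C6). With arrays scaled to their medians it was 1, and Masp2 turned to 0.05, while with bright-probe scaling it was 17 and included Fgb (-0.95), Fgg (-0.90) and F2 (-0.62). Of all features, 1377 were called with median scaling and 1312 with bright-probe scaling, against 2108 without them.

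Set directly against each other at week 12, the doses gave 30 genes lower and 1 higher in DEN 100 than in DEN 50, against 4.31% and 5.07% of all features. Of features with a mean above 10, 18.8% were lower. The median difference was -1.04. Hrg differed most, 14.24, 14.01 and 14.15 in DEN 50 and 12.20, 11.82 and 11.29 in DEN 100, by -2.37 ± 0.18 (adjusted p = 1.2e-08, limma). Klkb1 differed by -2.22 ± 0.19, Plg by -2.05 ± 0.24, Cfb by -1.99 ± 0.18 and Mbl2 by -1.97 ± 0.18. For Hrg, Plg and Cfb the values of DEN 50 against PBS had been -0.12, -0.40 and -0.30, none past the threshold. F7 (-0.18), Fgb (-0.23) and Fgg (-0.31) were the 3 that did not pass. Cfd was higher in DEN 100 by 1.04 ± 0.27 (adjusted p = 0.015, limma). That call was lost without DEN 50 array DEN_14 or DEN_51 or DEN 100 array DEN_111. It was also lost with median scaling, with bright-probe scaling and in a fit of these groups alone. The group means of 30 genes followed the order PBS, DEN 50, DEN 100 from high to low, which was not counted over all features. Both DEN groups were set against the same PBS arrays. The count was 24 without array DEN_113, 25 without DEN 50 array DEN_11 and 20 in a fit of these groups alone.

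At week 18, DEN 50 livers with vehicle had 19 genes lower and 1 higher than PBS livers, against 8.73% and 9.51% of all features. The PBS rats received no vehicle, so DEN and vehicle cannot be told apart in this comparison. Of features with a mean above 10, 20.8% were lower. The median change was -0.68, with 9 of 14 clotting genes, 3 of 4 fibrinolysis genes and 7 of 16 complement genes lower. Mbl2 fell most: it was 10.58, 10.32 and 10.79 in PBS and 8.63, 8.70 and 7.68 with vehicle, with array DEN_69 the lowest. Its change was -2.23 ± 0.18 (adjusted p = 1.8e-08, limma). C6 fell by 1.75, F10 by 1.57, C8g and F11 by 1.36, Proc by 1.32 and F12 by 1.31. All 4 measured anticoagulant genes among the listed ones fell, Pros1 by 1.27, Serpind1 by 0.79 and Serpinc1 by 0.73 beside Proc. Of the 5 vitamin K-dependent genes all but F2 fell. Alongside, 6 of 7 myofibroblast markers rose, with summed intensities of 1468 to 1518 on the PBS arrays and 7259 to 9852 with vehicle. Of the bile duct markers 4 of 6 rose, with sums of 921 to 1028 and 4383 to 9222. Their part in the changes was not tested.

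Other genes had small changes in the week 18 comparison. F2 had a change of -0.03 ± 0.18, Fgg of -0.04 ± 0.19, Cfi of -0.04 ± 0.15, C2 of -0.08 ± 0.21 and C9, the pore-forming component, of 0.16 ± 0.20. None of the 3 classical proteases passed (C1s -0.50, adjusted p = 0.072, limma). The vehicle mean of 33 genes lay between the week 12 means of PBS and DEN 100, which was not counted over all features. Without vehicle array DEN_24 the count of called genes was 15, with Serpinc1, Plg, Hrg, Serping1 and F7 lost. Of these, Plg, Serpinc1, Serping1 and F7 were each also lost without 2 or more of the PBS arrays. With arrays scaled to their medians the count of called genes was 11, with 1963 of all features called against 3528 without that scaling. With bright-probe scaling it was 24, and F2 (-0.71, adjusted p = 0.0094, limma), Fgb (-0.85, adjusted p = 0.02, limma) and C1s (-0.92, adjusted p = 0.0076, limma) passed.

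Control livers of both time points were also compared. Between PBS livers of week 18 and week 12 limma called 0 of the 34 genes and 0 of all features, with 1 of 34 and 8.11% of all features at an unadjusted p under 0.05, and the changes ran from -0.43 for Cfd to 0.25 for Mbl2. In DEN 50 livers, vehicle at week 18 against week 12, 2 genes fell, Mbl2 by 1.16 and Proc by 0.79, where 0.393% of all features fell and 0.15% rose. Vehicle injections and further weeks of DEN cannot be told apart there. The call for Mbl2 was lost without DEN 50 array DEN_11, and that for Proc without this array or any of the vehicle arrays. Both were lost with median and bright-probe scaling and in a fit of the compared arrays alone. The test of whether the DEN 50 change differed between the time points called Mbl2 alone, at -1.41 ± 0.26 (adjusted p = 0.026, limma), where 0.181% of all features were lower and 0.0517% higher. It was lost without array PBS_110 of week 12, array PBS_8 or PBS_18 of week 18, or DEN 50 array DEN_11 or DEN_51, and under median and bright-probe scaling and in a fit of the compared groups alone. Cfd had a difference of 1.32 ± 0.38 (adjusted p = 0.14, limma). Without vehicle array DEN_59 Cfd passed in the opposite direction to Mbl2, at 1.73 in this test (adjusted p = 0.017, limma) and at 1.30 in DEN 50 livers between the time points (adjusted p = 0.011, limma).

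**Figure D4:**
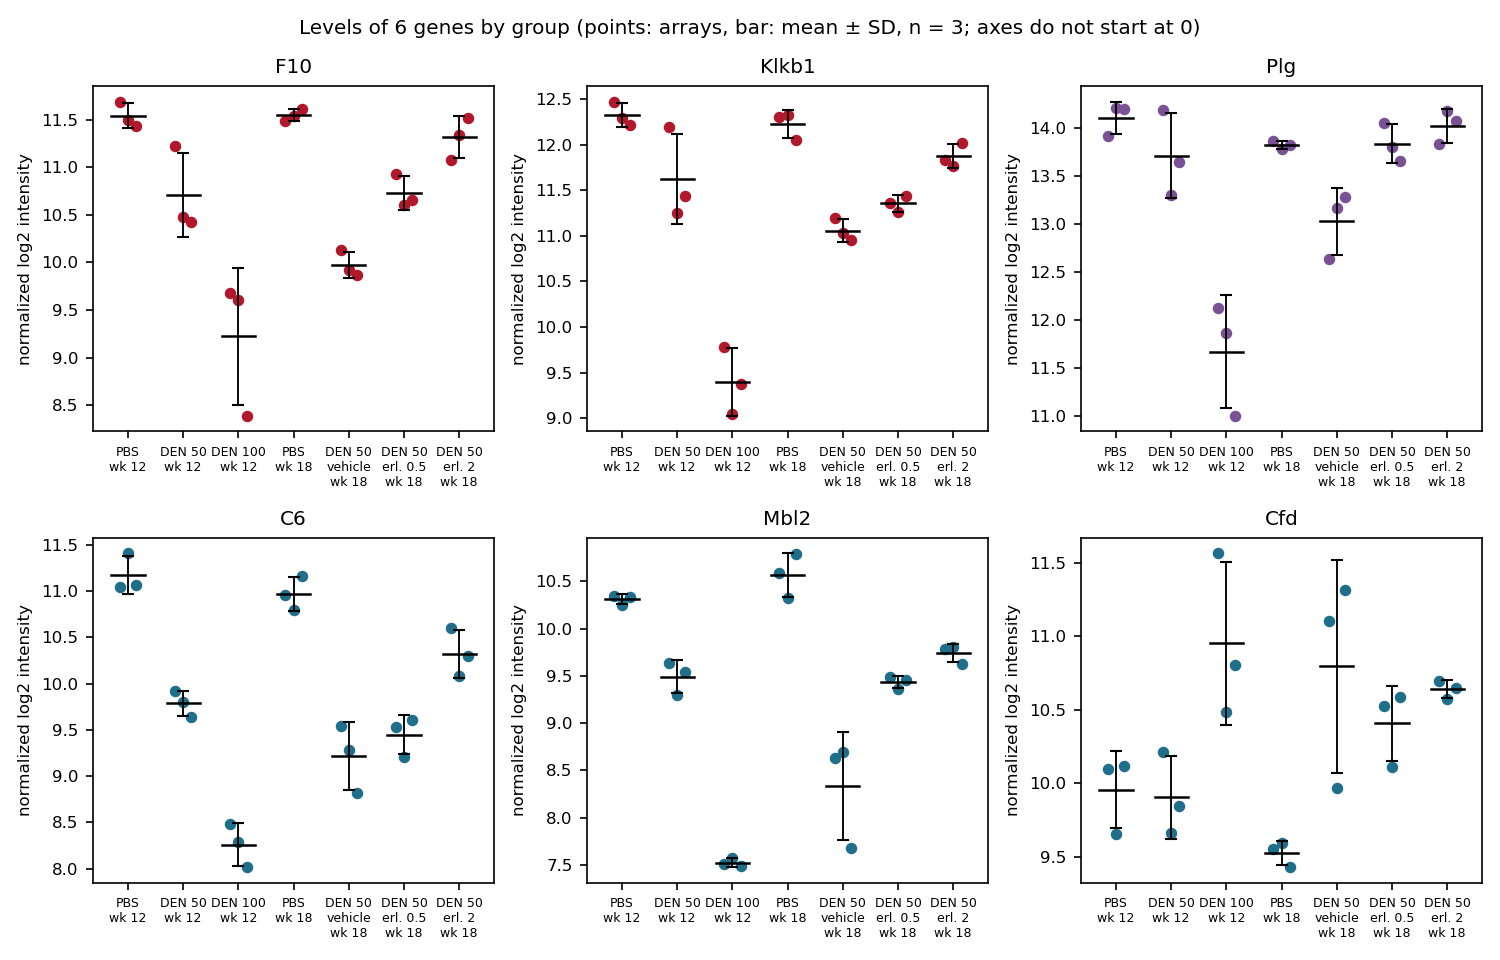
Normalized log2 intensity of 6 genes on every array by group, with mean and SD of 3 arrays and axes that do not start at 0. F10, Klkb1, Plg, C6 and Mbl2 are lowest in DEN 100 and lower with vehicle than in PBS of week 18, with the erlotinib 2 arrays above the vehicle arrays, while Cfd is highest in DEN 100 and vehicle livers with wide spread.

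Erlotinib at 2 mg/kg was compared with vehicle in DEN 50 livers. Vehicle rats of 2 studies were merged without a label for each rat's study, so drug and study cannot be fully told apart here. In all 15 genes were higher and 0 lower, against 1.92% of all features higher and 2.11% lower. Of features with a mean above 10, 9.32% were higher. The median difference was 0.58 against 0.00 for all features. By arm, 7 of 14 clotting genes (F10, F11, F12, Klkb1, Serpinc1, Proc and Pros1), 3 of 4 fibrinolysis genes (Plg, Cpb2 and Hrg) and 5 of 16 complement genes (Mbl2, Masp2, Cfb, C6 and C8g) were higher.

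Mbl2 was 8.63, 8.70 and 7.68 with vehicle and 9.78, 9.81 and 9.63 with erlotinib 2, a rise of 1.41 ± 0.18 (adjusted p = 0.00013, limma). F10 was 10.13, 9.92 and 9.87 with vehicle and 11.08, 11.34 and 11.52 with the drug, and rose by 1.34 ± 0.24 (adjusted p = 0.0027, limma). Neither gene overlapped between the groups. C6, at 9.55, 9.28 and 8.82 with vehicle and 10.60, 10.08 and 10.29 with erlotinib 2, rose by 1.11 ± 0.18 (adjusted p = 0.00091, limma), and Proc rose by 1.11 ± 0.17 (adjusted p = 0.00054, limma). Plg rose by 1.0, F12 by 0.99, C8g by 0.88 and Klkb1 by 0.82. The contact factors were all 3 higher. The vehicle arrays served both here and in the comparison of vehicle with PBS, so a low vehicle value makes both the fall against PBS and the rise with erlotinib larger. Side by side, the changes of vehicle against PBS and of erlotinib 2 against vehicle were -2.23 and 1.41 for Mbl2, -1.57 and 1.34 for F10, -1.75 and 1.11 for C6 and -1.32 and 1.11 for Proc. In level, Mbl2 averaged 9.74 ± 0.10 (SD, n = 3) with erlotinib 2 and 10.57 ± 0.23 in PBS of week 18, and C6 10.32 ± 0.26 and 10.97 ± 0.18. F10 averaged 11.31 ± 0.22 and 11.55 ± 0.06, and Plg 14.03 ± 0.18 and 13.83 ± 0.04.

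F2, Fgg and C2, which lay near the PBS level in vehicle livers, differed with erlotinib 2 by 0.04 ± 0.18, 0.06 ± 0.19 and 0.25 ± 0.21, and none passed. Cfd, higher in vehicle livers than in PBS, differed by -0.15 ± 0.27 (adjusted p = 0.88, limma). None of the 3 classical proteases or 4 regulators passed, with Serping1 at 0.82 ± 0.26 (adjusted p = 0.081, limma). Serpinf2 at 1.17 ± 0.33 (adjusted p = 0.051, limma) also missed the threshold, and passed without vehicle array DEN_59. Serpinf2 and Mbl1 also passed with the stricter filter on dim probes, where the count was 17. The count was 13 without vehicle array DEN_24, where Serpinc1, Plg and Hrg were lost and Mbl1 passed. It was 8 without erlotinib 2 array DEN_29 and 9 without array DEN_31 or vehicle array DEN_69, and 7 calls held without every array in turn (F10, F12, Proc, Pros1, Mbl2, Masp2 and C6). It was 4 with median scaling, where 125 of all features were called, against 780 without that scaling. Alongside, 1 of 9 hepatocyte markers was higher with erlotinib 2, Ttr by 0.79, while 5 of 7 myofibroblast and 3 of 6 bile duct markers were lower, with summed intensities of 7259 to 9852 against 3229 to 3909 and of 4383 to 9222 against 1907 to 3701. Their part in the differences was not tested.

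Erlotinib at 0.5 mg/kg gave 1 call against the same vehicle arrays, with the same limit on telling drug and study apart. Mbl2 was 9.49, 9.37 and 9.46 with this dose, above all vehicle values, and rose by 1.11 ± 0.18 (adjusted p = 0.015, limma), where 0.103% of all features rose and 0.0362% fell. Of features with a mean above 10, 0.65% rose. The call was lost without erlotinib 0.5 array DEN_73 or DEN_74, under median and bright-probe scaling and in a fit of the compared arrays alone. Of the 34, 12 had an unadjusted p under 0.05, as did 11.2% of all features, and the median difference was 0.28, with Proc at 0.80 ± 0.17 (adjusted p = 0.067, limma), Plg at 0.81 ± 0.24 (adjusted p = 0.16, limma) and F10 at 0.76 ± 0.24 (adjusted p = 0.21, limma). Between erlotinib 2 and erlotinib 0.5 limma called 0 of 34 genes, with 11 at an unadjusted p under 0.05 against 8.01% of all features, and called 0.0362% of all features higher and 0.0414% lower. C6 differed by 0.88 ± 0.18 (adjusted p = 0.057, limma), Pros1 by 0.65 ± 0.15 (adjusted p = 0.1, limma) and Mbl2 by 0.30, with a 95% confidence interval of -0.08 to 0.69. A fit of these groups alone called 3 of the 34. Of all features it called 273, against 15 in the fit of all arrays. The group means of 25 genes rose in the order vehicle, erlotinib 0.5, erlotinib 2. That order was not counted over all features, and dose and study cannot be told apart in it.

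**Figure D5:**
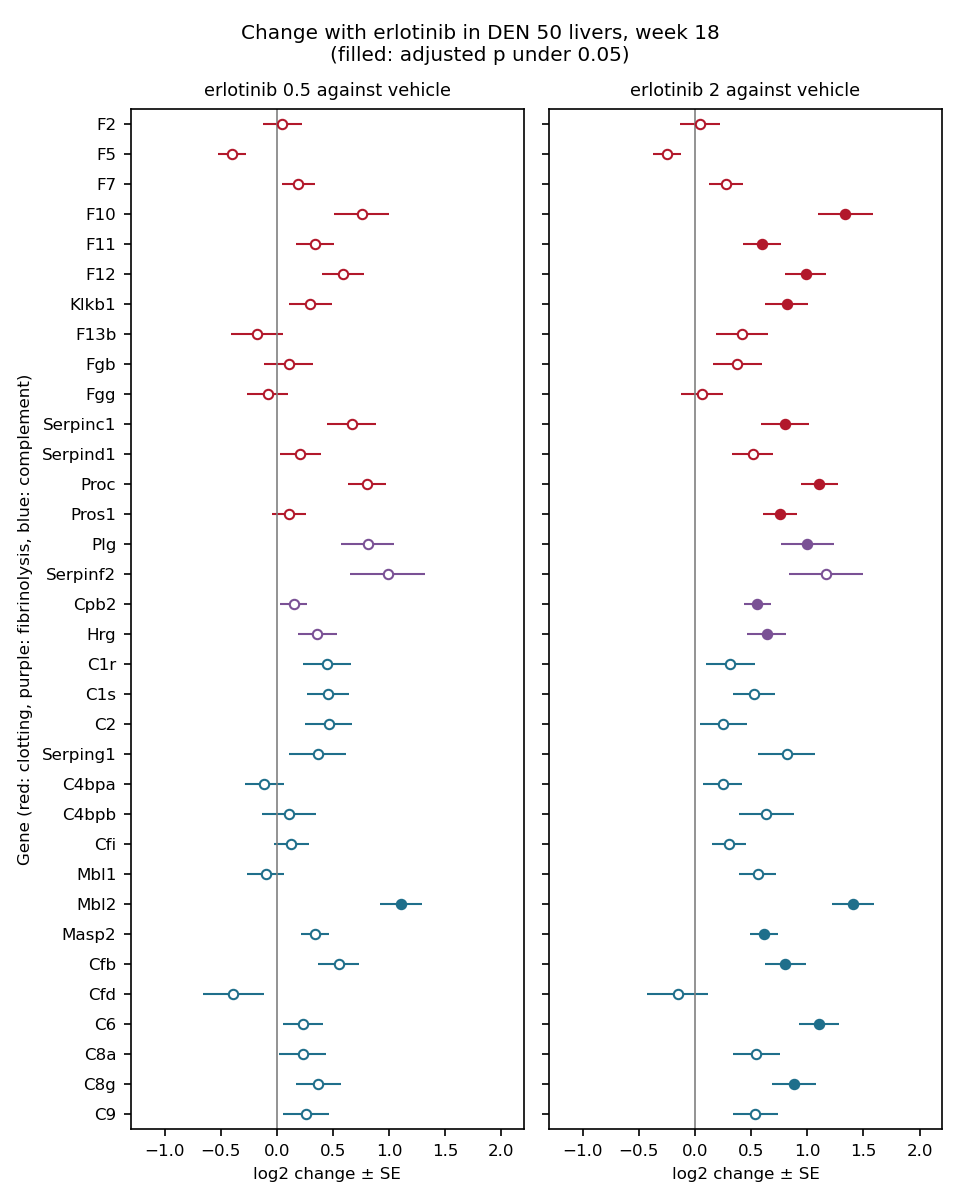
Log2 change ± SE of each gene with erlotinib 0.5 and erlotinib 2 against vehicle in DEN 50 livers of week 18, with filled points for adjusted p under 0.05. Erlotinib 0.5 has 1 filled point, Mbl2 at 1.11, and erlotinib 2 has 15, all right of 0, with Mbl2 at 1.41 the farthest.

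Genes of the same systems outside the 42, many made by cells other than hepatocytes, moved in both directions. Of 21 other clotting and anticoagulant genes 7 rose and 5 fell in DEN 100, against 11.5% and 9.81% of all features. With vehicle at week 18, 8 rose and 4 fell, against 9.51% and 8.73% of all features. These lists were not tested as sets. Higher in DEN 100 were Procr, the endothelial receptor of protein C, by 2.28, and von Willebrand factor, Vwf, by 2.10. The thrombin receptor F2r rose by 1.14 in DEN 50 at week 12 and by 1.89 with vehicle at week 18. In DEN 100 Fgl1, a fibrinogen-like protein of hepatocytes, fell by 2.58 and the protease Habp2 fell by 2.35. Tfpi, the inhibitor of the tissue factor route, rose by 1.61 with vehicle at week 18 and was lower by -0.94 with erlotinib 2. Vkorc1, the enzyme that recycles vitamin K, fell by 0.83 in DEN 100 and 0.58 with vehicle.

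Of 8 other fibrinolysis genes, 4 rose and 1 fell in DEN 100, against 11.5% and 9.81% of all features. With vehicle at week 18, 5 rose, against 9.51% of all features. Annexin A2, Anxa2, which binds plasminogen at cell surfaces, rose by 3.22 in DEN 100 and 3.50 with vehicle, and the plasminogen activator Plat by 1.78 and 1.51. The protease inhibitor A2m rose by 2.49 with vehicle. With erlotinib 2, Anxa2 and the inhibitor Serpine2 were lower, by -1.11 and -0.88.

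Of 21 other complement genes and receptors, 4 rose and 8 fell in DEN 100, against 11.5% and 9.81% of all features. With vehicle 4 rose and 3 fell, against 9.51% and 8.73% of all features. The C1q chains, which macrophages make, rose: C1qb by 1.07 and C1qc by 1.09 in DEN 50 at week 12, and by 1.83 and 1.82 with vehicle at week 18. In DEN 100 vitronectin, Vtn, fell by 2.50, the carboxypeptidase subunit Cpn2 fell by 2.01, C4b fell by 1.78 and C-reactive protein, Crp, fell by 1.73. Crp and C4b were the 2 of this list higher with erlotinib 2, by 1.37 and 1.13, where 1.92% of all features were higher. C4b and C4a are near-identical copies, so its probe may not separate them. The macrophage markers measured alongside moved both ways in DEN 100, with Cd163 higher by 0.64 and Cd14 and Marco lower by -2.42 and -1.51.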

How the data were processed

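Liver RNA was hybridized to 21 Illumina bead arrays of 22523 probes, 1 array per labelled sample. The deposited raw table holds bead intensities on a linear scale, with array medians of 105 to 186.9, and the authors' deposited normalized intensities have medians of 135.5 to 136.8. Scanner software and the authors' normalization are not given in the sources used here. Per the labels' protocols, total RNA was extracted with TRIzol.

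From the deposited raw intensities, background was corrected by normexp with an offset of 50, log2 was taken and arrays were quantile normalized (limma 3.58.1, R 4.3.3). A probe had to exceed the 40th percentile on 3 or more arrays, and each gene was read from its brightest probe. Symbols came from the platform annotation (13793 probes), updated by Entrez identifier to RefSeq GRCr8 (13752 matched). A fit of group means over all 21 arrays with eBayes gave 10 comparisons, each adjusted by Benjamini-Hochberg over 19339 features, of which 12112 are named genes and 7227 unnamed probes. The procedure was tested on simulated data. Figures used matplotlib 3.10.9.

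Any of the genes could be named. In each comparison these were the called genes with the largest changes and those near the top of the scale, and from other gene lists up to 4 called genes. Genes and lists were chosen with earlier results of these data known. Alternatives were the deposited table, no background correction, scaling to medians or on bright probes, other filters, the mean of a gene's probes, fits of the compared arrays alone and leaving out each array. No batch is recorded in the labels.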

Additional observations from a re-analysis of the deposited data

Results flagged for a closer look

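The change of Mbl2 in DEN 50 livers against PBS differed between the time points by the test of the difference itself. It was -0.82 at week 12 and -2.23 at week 18 with vehicle, a difference of -1.41 ± 0.26 (adjusted p = 0.026, limma), with all vehicle arrays below all DEN 50 arrays of week 12. Without 1 array at a time the difference ran from -1.60 to -1.09. The call was lost without array PBS_110, PBS_8, PBS_18, DEN_11 or DEN_51, under median and bright-probe scaling, and in a fit of the compared groups alone. Vehicle and the longer course of DEN cannot be told apart.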

How the results depend on the processing

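With arrays scaled to their medians, the number of genes called fell to 1 in DEN 50 against PBS at week 12, 11 with vehicle against PBS at week 18 and 4 with erlotinib 2 against vehicle, and Masp2 turned to 0.0485 in the first of these. Calls over all features fell too, from 2108 to 1377, 3528 to 1963 and 780 to 125. Median scaling, bright-probe scaling and a fit of the compared arrays alone each left 0 calls for erlotinib 0.5 against vehicle, for DEN 50 between the time points and for the test of whether the DEN 50 change differed with time. Of all features these settings called 0, 0 and 2, then 13, 6 and 9, then 3, 7 and 85, against 27, 105 and 45 in the main setting. A fit of the compared arrays alone gave 20 for DEN 100 against DEN 50 and 3 for erlotinib 2 against erlotinib 0.5. In these comparisons it called 970 and 273 of all features, against 1814 and 15 in the main setting. The deposited table gave 1 for DEN 50 between the time points, with 33 of all features called against 105. The cause of these shifts was not tested. Scaled on bright probes, the median over all features shifted by -0.50 in DEN 50 and -0.21 in DEN 100 at week 12, by 0.30 between the doses and by -0.37 with vehicle at week 18. Within 2 log2 units of the brightest value lay 7 genes in place of 3.

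Leaving out 1 array at a time, the count ran from 7 to 14 in DEN 50 and 29 to 33 in DEN 100 at week 12, 24 to 31 between the doses, 15 to 21 with vehicle, 0 to 1 with erlotinib 0.5, 8 to 14 with erlotinib 2, 0 to 2 for DEN 50 between the time points and 0 to 2 for the interaction. The higher count of DEN 50 came without DEN_11, and that of the interaction without DEN_59, where Cfd passed. Between the time points the count was 0 without DEN_11 and 1 without DEN_24 or DEN_69. No paired analysis was possible because no replicate number is shared between groups. Probes near the top of the scale, and 3 arrays a group, limit what could be measured.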
